A study of Mus musculus with 23 samples.

Results

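The 8 genes described here encode receptors and an enzyme through which neuromodulators act: the adrenergic receptor Adrb1, the adenosine receptor Adora3, the serotonin receptor Htr2b, the GABA-B receptor subunit Gabbr1, the dopamine receptors Drd1 and Drd2, the sigma-2 receptor Tmem97, and monoamine oxidase A, Maoa. They were taken by symbol from a gene count table of 35976 genes, which held all 8. The table came from 23 RNA-seq libraries of striatal microglia, from C57BL/6J males labelled 9 weeks old in every group. This single value does not show whether it is the age at the start or at collection. In the 8 Saline libraries the mice had worked a lever for intravenous saline in 15 daily sessions of 2 hr, and in the 8 Maintenance libraries for methamphetamine at 0.05 mg/kg per infusion in the same sessions, with microglia taken right after the final session. In the 7 Abstinence libraries the mice had self-administered methamphetamine on the same schedule and then spent 21 days without it in the home cage. No Saline group passed through those 21 days, so abstinence, age and time in the home cage cannot be told apart. Among the labels, cell type is set to microglia but tissue to neuronal, and they carry the methamphetamine treatment tag on Saline libraries too. They do not say that each library is a separate animal, so p-values measure the spread between these libraries.

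Microglia, the resident macrophages of the brain, sense noradrenaline, adenosine, serotonin and other transmitters through G protein-coupled receptors, which raise or lower cyclic AMP or release calcium. Beta adrenergic and A2-type adenosine receptors couple to Gs, A3 adenosine and GABA-B receptors to Gi, and 5-HT2B to Gq. Methamphetamine releases dopamine, noradrenaline and serotonin from nerve terminals, inhibits monoamine oxidase, and binds sigma receptors. In the striatum the dopamine receptors Drd1 and Drd2 are best known from the projection neurons, Drd1 from those of the direct pathway and Drd2 from those of the indirect pathway.

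Each library held between 54970954 and 94827095 counts (median 75394102), and the 3 counts that a value of 0 still allows correspond to 0.0325 to 0.0551 CPM (counts scaled to a common total of 1e+06), a limit that covers counting error only. The defining markers of microglia, among them Tmem119, P2ry12 and Cx3cr1, had counts in each library, and the 12 of that list summed to between 45245 and 69316 CPM. The summed level of 18 markers of striatal projection neurons lay between 27.9 and 381 CPM, and that of 11 markers of endothelium and mural cells between 296 and 1754 CPM. Maintenance 8 stood apart with 43366 CPM of markers of choroid plexus and ependyma, against 102 CPM or less in each other library, and Maintenance 6 and 7 had the fewest genes detected, 12459 and 12740 against 14727 or more. In bulk RNA, fewer cells of a type and less RNA per cell cannot be told apart. This bears on each level given here.

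Promoter sequences of the members were matched in RefSeq (GRCm38.p6), with 9 windows for 8 of 8 genes. The 250 bases before the start are shown for the 3 members with the highest level per length, Adora3, Tmem97 and Maoa, and for Drd2, the member detected in the fewest libraries, so that an abundant and a sparse transcript can be set side by side. Capitals mark matches, on either strand, to the core of the PU.1 site (GAGGAAGT), the GC box (GGGCGG) or the CCAAT box (CCAAT), and no matches overlapped. The windows, written along the gene's strand, are chr3:105904171-105904420 (plus) for Adora3, chr11:78550736-78550985 (minus) for Tmem97, chrX:16619448-16619697 (plus) for Maoa and chr9:49340153-49340402 (plus) for Drd2.
Adora3: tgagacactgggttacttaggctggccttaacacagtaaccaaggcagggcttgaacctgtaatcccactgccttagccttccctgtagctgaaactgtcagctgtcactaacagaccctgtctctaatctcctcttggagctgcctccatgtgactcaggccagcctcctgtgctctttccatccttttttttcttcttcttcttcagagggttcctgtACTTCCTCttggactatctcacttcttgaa
Tmem97: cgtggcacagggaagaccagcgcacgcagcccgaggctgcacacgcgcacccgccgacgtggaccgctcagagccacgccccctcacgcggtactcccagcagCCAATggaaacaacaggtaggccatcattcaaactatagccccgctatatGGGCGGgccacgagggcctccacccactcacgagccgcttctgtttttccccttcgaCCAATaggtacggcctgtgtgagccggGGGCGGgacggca
Maoa: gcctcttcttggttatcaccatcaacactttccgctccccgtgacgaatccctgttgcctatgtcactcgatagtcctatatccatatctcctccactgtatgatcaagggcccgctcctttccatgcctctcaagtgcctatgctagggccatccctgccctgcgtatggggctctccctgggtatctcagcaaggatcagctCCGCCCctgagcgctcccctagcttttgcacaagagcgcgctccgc
Drd2: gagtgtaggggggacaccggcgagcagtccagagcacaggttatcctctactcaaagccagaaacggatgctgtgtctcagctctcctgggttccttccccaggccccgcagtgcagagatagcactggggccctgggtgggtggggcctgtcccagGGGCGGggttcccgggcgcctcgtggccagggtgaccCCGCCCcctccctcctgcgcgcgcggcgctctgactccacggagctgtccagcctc
Adora3 held the PU.1 motif, here as its reverse complement beginning 30 bases before the start. PU.1 is the factor that macrophages and microglia need for their identity, and its motif stood in 2.44% of 32851 promoter windows of the same length. Tmem97 held 2 GC boxes and 2 CCAAT boxes, Drd2 held 2 GC boxes, and Maoa held 1. GC boxes occurred in 32.7% and CCAAT boxes in 33.8% of all windows. The cyclic AMP response element (TGACGTCA, in 1.55% of windows) was in none of the 9 windows. Among the members not shown, Gabbr1 held 2 GC boxes, Adrb1 a GC box and a CCAAT box, 1 of the 2 Drd1 windows a GC box, and Htr2b none of the 4 motifs. A match is a run of letters and not evidence of binding.

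Levels differed widely among the members. Per kilobase of exon, so that genes can be compared, Adora3 stood highest at 46.96 ± 7.73 CPM per kb (SD, n = 23), and Tmem97 followed at 11.6 ± 2.75 CPM per kb. Maoa had 4.45 ± 1.60 and Adrb1 1.84 ± 0.811 CPM per kb. The lower levels were 0.457 ± 0.205 CPM per kb for Gabbr1, 0.243 ± 0.218 for Htr2b, 0.207 ± 0.275 for Drd1 and 0.102 ± 0.149 for Drd2. Adora3 exceeded Tmem97, and Tmem97 exceeded Maoa, in 23 of 23 libraries. Maoa exceeded Adrb1 in 20, Adrb1 exceeded Gabbr1 in 22, and Gabbr1 exceeded Htr2b in 17. The last neighbours, Htr2b over Drd1 and Drd1 over Drd2, kept their order in 14 of 23 libraries each, and their means differed by less than their SDs. The order was the same when the longest transcript replaced all exons. Adora3, Tmem97, Maoa, Adrb1 and Gabbr1 had counts in 23 of 23 libraries, Htr2b in 18, Drd1 in 17 and Drd2 in 13.

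**Figure D1:**
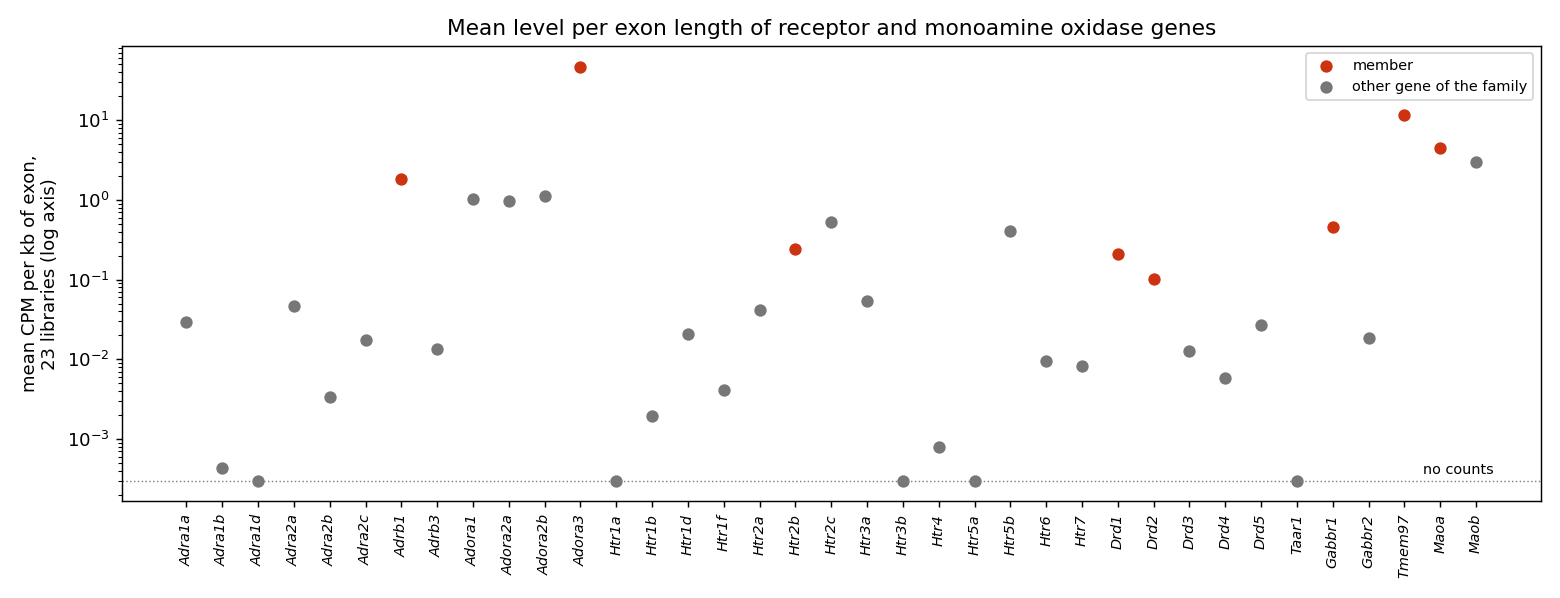
Mean CPM per kb of exon (log axis) over 23 libraries for 37 genes of the receptor families, with Tmem97 and the monoamine oxidases, with the 8 members in red and the other genes in grey. Not every gene of these families is plotted, so the order holds only among those shown and not for the families. Adora3 stands highest of the genes plotted, Drd1 and Drd2 lie near the level of Htr2b, and the 5 genes on the dotted line had no counts. The mean of Htr2c rests on Maintenance 8, the library with the choroid plexus markers, which held 9696 of its 9868 counts. Maob and Adora2b also had their highest values in that library.

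All 8 members passed the filter on low counts and were tested together with the other genes, 16121 in all. None passed an adjusted p of 0.05 in any comparison (edgeR's quasi-likelihood test, Benjamini-Hochberg over all genes tested). In Maintenance against Saline, 0 of 8 members passed where 0.707% of all tested genes did. For Abstinence against Saline the background was 0.0186% with 0 of 8 members, and for Abstinence against Maintenance it was 0.949% with 0 of 8. At an unadjusted p under 0.05 the count was 1 of 8 members, Adora3, in Maintenance against Saline, where 11.8% of all tested genes were under that value. It was 0 of 8 in the other comparisons, where 4.39% and 11% were. DESeq2 also called 0 members in each comparison, though its own filter gave Htr2b, Drd1 and Drd2 no adjusted p in the comparisons with Maintenance. The comparisons share their groups, so their values are not independent. No member's groups were free of overlap in any comparison, beside 0.416%, 0.198% and 0.403% of all tested genes in the same order.

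**Figure D2:**
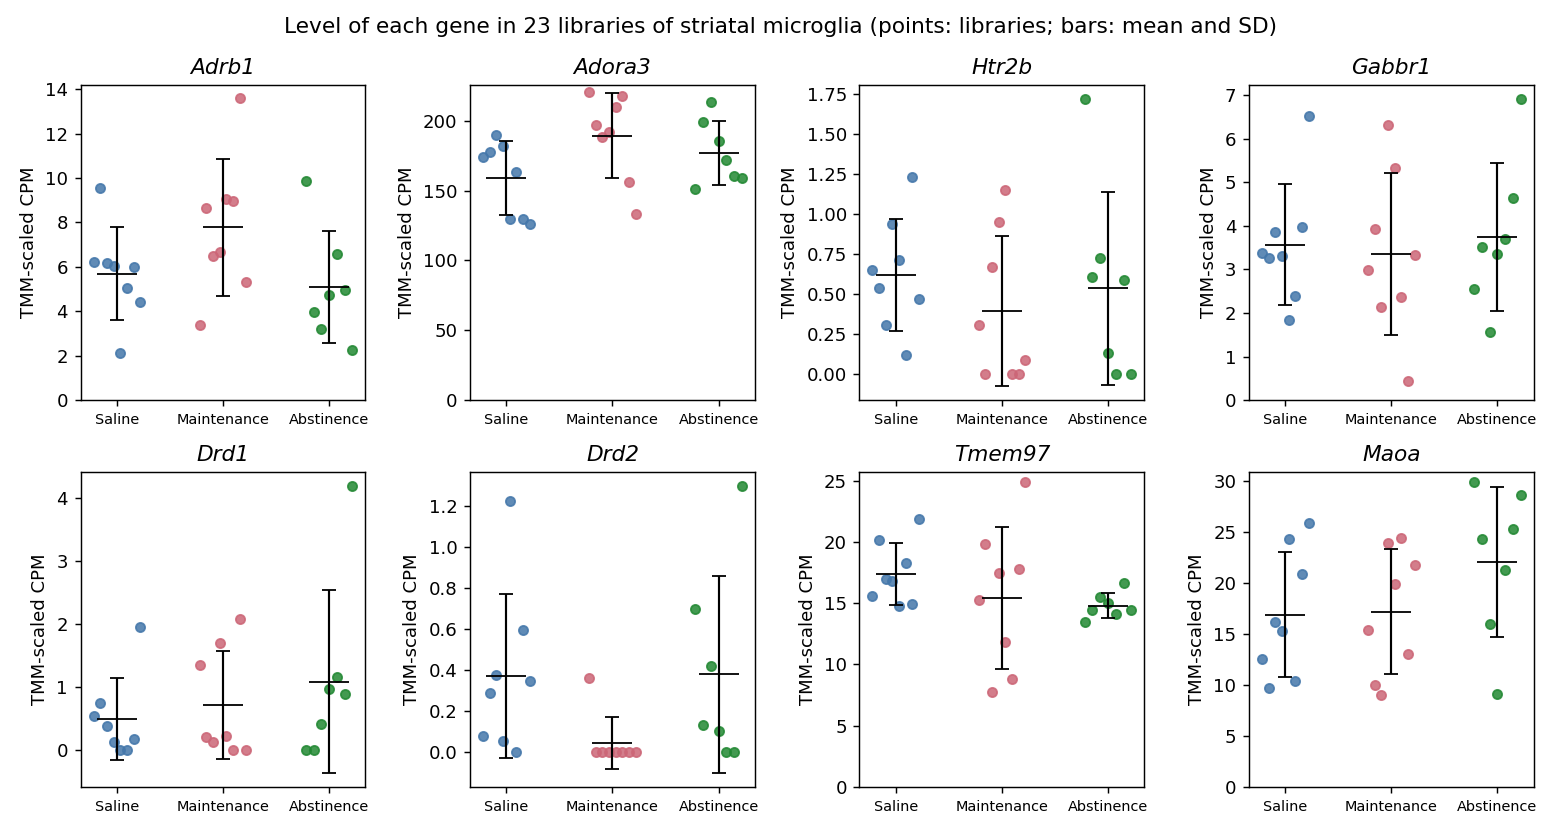
TMM-scaled CPM of each member (vertical axes) in 8 Saline, 8 Maintenance and 7 Abstinence libraries. Points are libraries and bars the mean and SD. The groups overlap in every panel, the 7 Abstinence values of Tmem97 lie within 13.5 to 16.7 CPM, and 7 of 8 Maintenance libraries are at 0 for Drd2.

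Adrb1 encodes the beta-1 adrenergic receptor, a Gs-coupled receptor for noradrenaline and adrenaline. In Saline it lay between 2.10 and 9.57 CPM (median 6.00), in Maintenance between 3.39 and 13.6 CPM (median 7.66), and in Abstinence between 2.23 and 9.86 CPM (median 4.74). Maintenance 7 was the highest library, and 6 of 8 Maintenance libraries were above the Saline median, while 6 of 7 Abstinence libraries were below the Maintenance median. The fitted log2 fold change was 0.45 ± 0.32 (SE) for Maintenance against Saline (edgeR adjusted p = 0.649) and −0.16 ± 0.33 for Abstinence against Saline (adjusted p = 0.999). For Abstinence against Maintenance it was −0.61 ± 0.33, with an unadjusted p of 0.0736 and an adjusted p of 0.529. The 95% interval of this last difference ran from −1.29 to 0.06 on the log2 scale.

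Of 9 adrenergic receptor genes, 4 could be tested and 0 passed in any comparison. Adra1a and Adra2a, receptors of the alpha type, each had a mean below 0.26 CPM, and Adra1d had no counts. Not every gene of this family is reported here, so these low levels do not describe the family.

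Adora3, the Gi-coupled A3 adenosine receptor, was the most abundant member. Its level ran from 126 to 190 CPM (median 169) in Saline, from 133 to 221 CPM (median 194) in Maintenance and from 151 to 213 CPM (median 172) in Abstinence. In Maintenance 5 of 8 libraries were above the highest Saline library, while Maintenance 3, 7 and 8, at 188, 156 and 133 CPM, lay within the Saline range. Maintenance against Saline gave a log2 fold change of 0.25 ± 0.11, a fold of 1.19 with a 95% interval from 1.02 to 1.39, at an unadjusted p of 0.0270. The edgeR adjusted p was 0.331, so the difference did not pass, and in the alternatives run it stayed between 0.136 and 0.465 with the same sign. Abstinence against Saline gave 0.16 ± 0.11 (adjusted p = 0.999) and Abstinence against Maintenance −0.10 ± 0.11 (adjusted p = 0.884). The interval of this last fold ran from 0.798 to 1.10.

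Adora3 shares 779 bases (20.9% of its exon length) with Tmigd3 on the same strand (GENCODE vM21, chr3:105870858-105908926 for Adora3). Reads from that stretch cannot be assigned by strand, so part of the Adora3 count is uncertain. Tmigd3 itself averaged 36.9 ± 9.46 CPM in Saline and 33.1 ± 11.6 CPM in Maintenance (SD, n = 8 each). Its log2 fold change was −0.16 ± 0.20 (edgeR adjusted p = 0.872), the opposite sign to that of Adora3. Beside Adora3, the summed level of the microglia markers correlated across the 23 libraries with r = 0.522 and rho = 0.407 (two-sided permutation p = 0.00978 and 0.0552, adjusted over 88 relations 0.17 and 0.374). Without the 2 libraries farthest from the median marker level r was 0.499. The part of the microglial share in the Adora3 values was not tested.

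All 4 adenosine receptor genes could be tested and 0 passed. Adora1, the Gi-coupled A1 receptor, came nearest. It ran from 0.790 to 5.96 CPM in Saline, from 4.29 to 17.3 CPM in Maintenance and from 3.64 to 7.38 CPM in Abstinence. The Maintenance and Saline ranges overlapped between 4.29 and 5.96 CPM. Its log2 fold change for Maintenance against Saline was 1.39 ± 0.35 (edgeR adjusted p = 0.0575), while 6 of 32 alternatives, DESeq2 included (adjusted p = 0.00501), put it under 0.05. Per length its mean level, 1.02 CPM per kb, was far below the 46.96 CPM per kb of Adora3. The median log2 fold change of the 4 genes was 0.82 in Maintenance against Saline, beside 0.005 over all genes tested. The 4 did not move together, with −1.22 ± 0.96 for Adora2a and 1.78 ± 1.02 for Adora2b (edgeR adjusted p = 0.707 and 0.539). Adora2b was highest in Maintenance 8, the library with the choroid plexus markers, at 15.9 CPM, and was at 0 in Maintenance 5 and 7. Of 14 genes that handle adenosine and nucleotides, 14 were tested and 0 passed. Entpd1, which with Nt5e turns extracellular ATP to adenosine, averaged 1477 ± 174 CPM in Maintenance and 1189 ± 101 CPM in Abstinence (SD, n = 8 and 7), with an edgeR adjusted p of 0.0581. In 10 of 32 alternatives, DESeq2 among them (0.00384), it was under 0.05.

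Htr2b, the Gq-coupled 5-HT2B serotonin receptor, was sparse. It had counts in 8 of 8 Saline, 5 of 8 Maintenance and 5 of 7 Abstinence libraries. Its level ran from 0.124 to 1.23 CPM (median 0.594) in Saline, from 0 to 1.15 CPM (median 0.199) in Maintenance, and from 0 to 1.72 CPM (median 0.589) in Abstinence. The Maintenance libraries at 0 were 2, 6 and 7, of which 6 and 7 had the fewest genes detected, and the part of detection in these zeros was not tested. The log2 fold change was −0.65 ± 1.23 for Maintenance against Saline (edgeR adjusted p = 0.923), −0.21 ± 1.27 for Abstinence against Saline (adjusted p = 0.999) and 0.44 ± 1.27 for Abstinence against Maintenance (adjusted p = 0.966). The 95% interval of the first, −3.17 to 1.88, holds changes of several fold in both directions. Without Abstinence 1 the second was −0.86 and the third −0.21.

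Htr2b lies on the minus strand of chr1:86099026-86111970 and shares 252 exon bases (11.8% of its length) with Psmd1 on the plus strand. Psmd1, a proteasome subunit, averaged 136 CPM over the 23 libraries, and the counting is not stated to use strand, so Htr2b counts may hold Psmd1 reads. Psmd1 had at least 6819 counts in each of the 23 libraries, those with Htr2b at 0 included. The part of Psmd1 reads in the Htr2b counts was not tested. Of 14 serotonin receptor genes, 3 could be tested (Htr2a, Htr2b and Htr5b) and 0 passed. Htr2c, named here after its values were seen, was at 112 CPM in Maintenance 8, the library with the choroid plexus markers, and at 1.56 CPM or less in the others. Htr2b in that same library was at 0.0924 CPM.

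Gabbr1 encodes the GABA-binding subunit of the GABA-B receptor, which reaches the cell surface as a dimer with the product of Gabbr2. It ran from 1.85 to 6.53 CPM (median 3.35) in Saline, from 0.444 to 6.33 CPM (median 3.16) in Maintenance and from 1.56 to 6.92 CPM (median 3.52) in Abstinence. The ranges lay almost on top of each other, with Maintenance 7 lowest and Abstinence 7 highest. The log2 fold change was −0.09 ± 0.41 for Maintenance against Saline, 0.07 ± 0.43 for Abstinence against Saline and 0.16 ± 0.43 for Abstinence against Maintenance (edgeR adjusted p = 0.971, 0.999 and 0.962). The 95% interval of the first as a fold was 0.523 to 1.69. Gabbr2, the partner, had counts in 4 of 23 libraries, 0 of 8 Saline, 1 of 8 Maintenance and 3 of 7 Abstinence, with at most 1.23 CPM, and was too low to be tested. Of 14 GABA receptor genes 11 were tested and 0 passed. The GABA-A subunits Gabrb1 and Gabrg1 had means of 3.38 and 2.94 CPM.

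Drd1, the Gs-coupled D1 dopamine receptor, had counts in 6 of 8 Saline, 6 of 8 Maintenance and 5 of 7 Abstinence libraries. In Saline it lay between 0 and 1.96 CPM (median 0.285), in Maintenance between 0 and 2.08 CPM (median 0.220) and in Abstinence between 0 and 4.19 CPM (median 0.894). Abstinence 7 alone was above 2.08 CPM, and the rest of the Abstinence libraries lay within the range of the other groups. The log2 fold change was 0.52 ± 1.34 for Maintenance against Saline, 1.14 ± 1.38 for Abstinence against Saline and 0.61 ± 1.38 for Abstinence against Maintenance (edgeR adjusted p = 0.951, 0.999 and 0.952). Without Saline 8 the first was 1.31 and the second 1.93. Without Abstinence 7 the second was 0.20 and the third −0.31.

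Drd2, the Gi-coupled D2 dopamine receptor, had counts in 7 of 8 Saline, 1 of 8 Maintenance and 5 of 7 Abstinence libraries. Its level ran from 0 to 1.22 CPM (median 0.316) in Saline and from 0 to 1.30 CPM (median 0.131) in Abstinence. In Maintenance a single library, Maintenance 1, had 26 counts (0.361 CPM), and the other 7 were at 0. All groups overlapped at 0, and the highest Saline and Abstinence libraries held only 84 and 115 counts. The fitted log2 fold change was −2.99 ± 1.58 for Maintenance against Saline (unadjusted p = 0.0690, edgeR adjusted p = 0.481) and 3.03 ± 1.60 for Abstinence against Maintenance (unadjusted p = 0.0705, adjusted p = 0.520). Their 95% intervals, −6.24 to 0.25 and −0.27 to 6.32, span 0. For Abstinence against Saline the value was 0.03 ± 1.51 (adjusted p = 0.999). Without Abstinence 7 it was −0.72, and Abstinence against Maintenance was 2.27. Without Maintenance 1 all Maintenance libraries are at 0, and the adjusted p became 0.0552 against Saline and 0.0464 for Abstinence against Maintenance, so whether the gene passed in the latter comparison rested on 26 counts in 1 library.

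Levels of neuronal markers are given beside the dopamine receptors. The summed level of the 18 striatal neuron markers was 27.9 to 139 CPM (median 59.9) in Saline, 35.2 to 381 CPM (median 65.2) in Maintenance and 45.9 to 150 CPM (median 89.8) in Abstinence. The 381 CPM belongs to Maintenance 8, where 370 CPM of it came from Ppp1r1b, and Drd1 and Drd2 were both at 0 in that library. None of the 3 differences in this sum passed an exact permutation test (two-sided, n = 7 or 8 per group, adjusted p = 0.473 or more over 33 tests). Across the 23 libraries Drd1 and the neuron sum had r = 0.161 and rho = 0.301 (two-sided permutation p = 0.471 and 0.163, adjusted 0.767 and 0.501), and r without the 2 farthest libraries was 0.429. Drd2 and the neuron sum had r = 0.237 and rho = 0.366 (two-sided permutation p = 0.279 and 0.0871, adjusted 0.703 and 0.452), with r = 0.640 without the 2 farthest libraries. Other lists gave larger values. Drd1 had rho = −0.538 with the monocyte markers and 0.518 with the oligodendrocyte markers (adjusted permutation p = 0.19 each). Drd2 had rho = −0.569 with the border macrophage markers (adjusted permutation p = 0.167). The part of neuronal RNA in the Drd1 and Drd2 values was not tested.

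Genes that indirect-pathway neurons express together with Drd2 were looked at after the Drd2 values were seen. Penk, the enkephalin precursor, ran from 1.54 to 37.8 CPM (median 9.66) in Saline, from 0 to 46.5 CPM (median 1.78) in Maintenance and from 1.10 to 49.3 CPM (median 24.9) in Abstinence. Its high Maintenance value, 46.5 CPM, was in Maintenance 1, the library with the Drd2 counts, and the other 7 were at 3.47 CPM or less. Gpr6, an orphan receptor of the same neurons, had counts in 8 of 8 Saline, 1 of 8 Maintenance and 6 of 7 Abstinence libraries, the single Maintenance library being Maintenance 2 with 14 counts. Adora2a, the Gs-coupled adenosine receptor of striatal neurons, had counts in 8 of 8, 5 of 8 and 7 of 7. None of the 3 passed for Maintenance against Saline (log2 fold change −1.08 ± 1.02 for Penk, −4.94 ± 1.50 for Gpr6 and −1.22 ± 0.96 for Adora2a, with edgeR adjusted p = 0.780, 0.122 and 0.707). Tac1, a direct-pathway marker named after its values were seen, averaged 1.08 ± 1.31 CPM in Saline and 1.03 ± 0.827 CPM in Maintenance (SD, n = 8 each), with 1 and 2 libraries at 0. Its log2 fold change for Maintenance against Saline was −0.07 ± 1.03 (edgeR adjusted p = 0.992). Of the 6 dopamine and trace amine receptor genes only Drd1 and Drd2 could be tested. Drd3, Drd4 and Drd5 each had counts in 1 library, and Taar1, a receptor that methamphetamine activates, had none.

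Tmem97 encodes the sigma-2 receptor, a membrane protein of the endoplasmic reticulum that takes part in cholesterol transport. Its level ran from 14.7 to 21.9 CPM (median 16.9) in Saline, from 7.76 to 24.9 CPM (median 16.3) in Maintenance and from 13.5 to 16.7 CPM (median 14.4) in Abstinence. The Abstinence libraries lay close together, 7 of 7 below the Saline median and 4 of 7 below the lowest Saline library, and the Maintenance libraries spread widest, with 3, 5 and 6 lowest and 8 highest. The log2 fold change for Abstinence against Saline was −0.23 ± 0.19 (fold 0.851, 95% interval 0.649 to 1.11, edgeR adjusted p = 0.999). Maintenance against Saline gave −0.17 ± 0.18 (adjusted p = 0.818), and Abstinence against Maintenance −0.06 ± 0.19 (adjusted p = 0.970).

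All 25 genes of sigma receptors and sterol handling were tested and 0 passed in any comparison. In Abstinence against Saline 18 of the 25 were higher, with a median log2 fold change of 0.10 beside 0.008 over all genes tested, and Tmem97 was among the 7 that were lower. Among the list, Npc2, which carries cholesterol in lysosomes, had a mean of 1130 CPM, and Pgrmc1, a haem-binding membrane protein once taken for the sigma-2 receptor, one of 154 CPM. Pgrmc1 reached 477 CPM in Maintenance 8, and its log2 fold change for Maintenance against Saline was 0.36 ± 0.22 (edgeR adjusted p = 0.587).

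Maoa, the mitochondrial enzyme that breaks down serotonin, noradrenaline and dopamine, ran from 9.71 to 25.8 CPM (median 15.7) in Saline, from 9.01 to 24.4 CPM (median 17.6) in Maintenance and from 9.07 to 29.8 CPM (median 24.3) in Abstinence. In Abstinence 6 of 7 libraries were above the Saline median and 2 above the highest Saline library, while Abstinence 4, at 9.07 CPM, was below the lowest. The log2 fold change was 0.02 ± 0.25 for Maintenance against Saline (edgeR adjusted p = 0.989), 0.38 ± 0.26 for Abstinence against Saline (adjusted p = 0.999) and 0.36 ± 0.26 for Abstinence against Maintenance (adjusted p = 0.726). The interval of the second as a fold was 0.899 to 1.89.

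Maoa followed the level of vessel cell markers from library to library. Against the summed level of 11 endothelial and mural cell markers (Cldn5, Rgs5 and others, with Maoa itself not among them), r was 0.766 and rho 0.774 over 23 libraries (two-sided permutation p = 3e-05 and 2e-05, adjusted over 88 relations 0.00264 and 0.00176). Without the 2 libraries farthest from the median marker level r was 0.733. Within groups rho was 0.976 in Saline (n = 8), 0.714 in Maintenance (n = 8) and 0.857 in Abstinence (n = 7), and without Maintenance 6, 7 and 8 it was 0.895 over 20 libraries. The only other relation of a member to a cell type list with an adjusted p under 0.05 was that of Maoa to the astrocyte markers (r = 0.643, rho = 0.651, two-sided permutation p = 0.00103 and 0.00091, adjusted 0.0453 and 0.0400). Its r without the 2 farthest libraries was 0.565, and its within-group rho was 0.881, 0.333 and 0.750. Against the microglia markers Maoa had r = −0.430 and rho = −0.499 (permutation p = 0.0374 and 0.0168, adjusted 0.254 and 0.211), and r without the 2 farthest libraries was −0.401. The vessel markers themselves had medians of 633, 702 and 728 CPM in Saline, Maintenance and Abstinence, and their sums did not pass an exact permutation test in any comparison (adjusted p = 0.998). With the vessel marker level as a covariate, chosen after these values were seen, the SE of the Maoa difference for Abstinence against Saline fell to 0.17 around a log2 fold change of 0.35 (edgeR adjusted p = 0.9997), and for Abstinence against Maintenance the value was 0.41 ± 0.17 (adjusted p = 0.312).

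**Figure D3:**
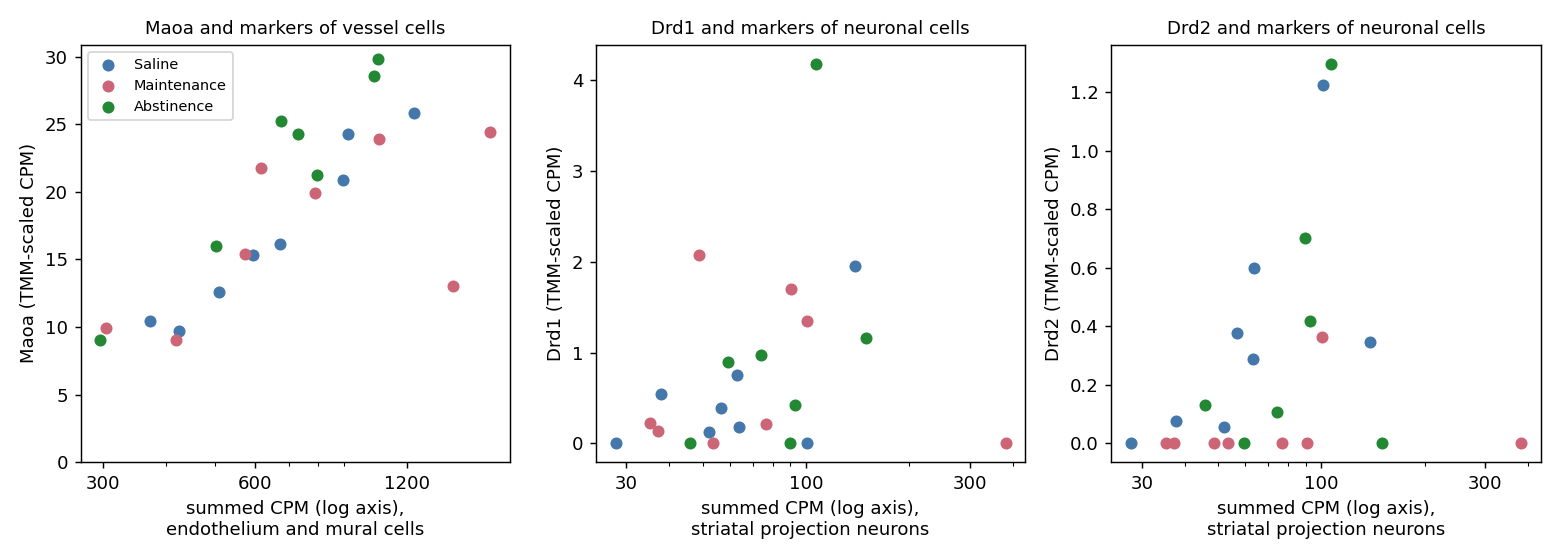
Level of Maoa (TMM-scaled CPM) against the summed CPM of endothelial and mural cell markers, and of Drd1 and Drd2 against the summed CPM of striatal projection neuron markers (log horizontal axes); points are the 23 libraries, coloured by group. Maoa rises with the vessel markers in each group (rho = 0.774 over all libraries), while Maintenance 8, at 381 CPM of neuronal markers, has no Drd1 or Drd2 counts.

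The genes whose levels followed each member most closely were taken by Spearman rho over the 23 libraries, as a description of libraries that also differ in cell content. For Maoa, among 9054 genes, they were Slc38a5 (rho = 0.888), Cd93 (0.867) and Bsg (0.842), an amino acid carrier, a surface receptor and basigin. All are known from brain endothelium, but the cells they came from here were not tested. Bsg averaged 1241 CPM and was highest in Maintenance 8, the library with the choroid plexus markers, at 3888 CPM. Slc38a5 ran from 2.62 to 62.9 CPM over the libraries. For Adora3 they were Dhx8 (0.797), Fancg (0.775) and Tlr3 (0.774), and for Adrb1 Nemf (0.754), Smarcd2 (0.751) and Kat2b (0.739). For Tmem97 they were Fkbp3 (0.702), Eci2 (0.677) and Scmh1 (0.657). Gabbr1 was closest to Ndrg4 (0.708), Htr2b to Bbs9 (0.810), Drd1 to Plekha1 (0.788) and Drd2 to Rtca (0.745), none of them a marker in the cell type lists. All these values were picked as the largest of 9054 or 9055 coefficients per member, so a high rho alone does not show a relation. Between members rho was at most 0.400 (Gabbr1 and Drd1) and at least −0.493 (Adrb1 and Drd2).

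Of the 21 genes of monoamine breakdown, transport and synthesis 10 were tested and 0 passed. Maob, the other monoamine oxidase, had 2.96 CPM per kb against 4.45 for Maoa. It stood at 73.4 CPM in Maintenance 8 and at 12.3 CPM or less in the other libraries. Slc29a4, a low-affinity monoamine transporter, was at 58.7 CPM in Maintenance 8 and at 0.817 CPM or less elsewhere. Maoa in that library was at 21.8 CPM, inside the range of the others. Slc6a2 and Dbh, the transporter and the last synthetic enzyme of noradrenaline, had no counts.

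**Figure D4:**
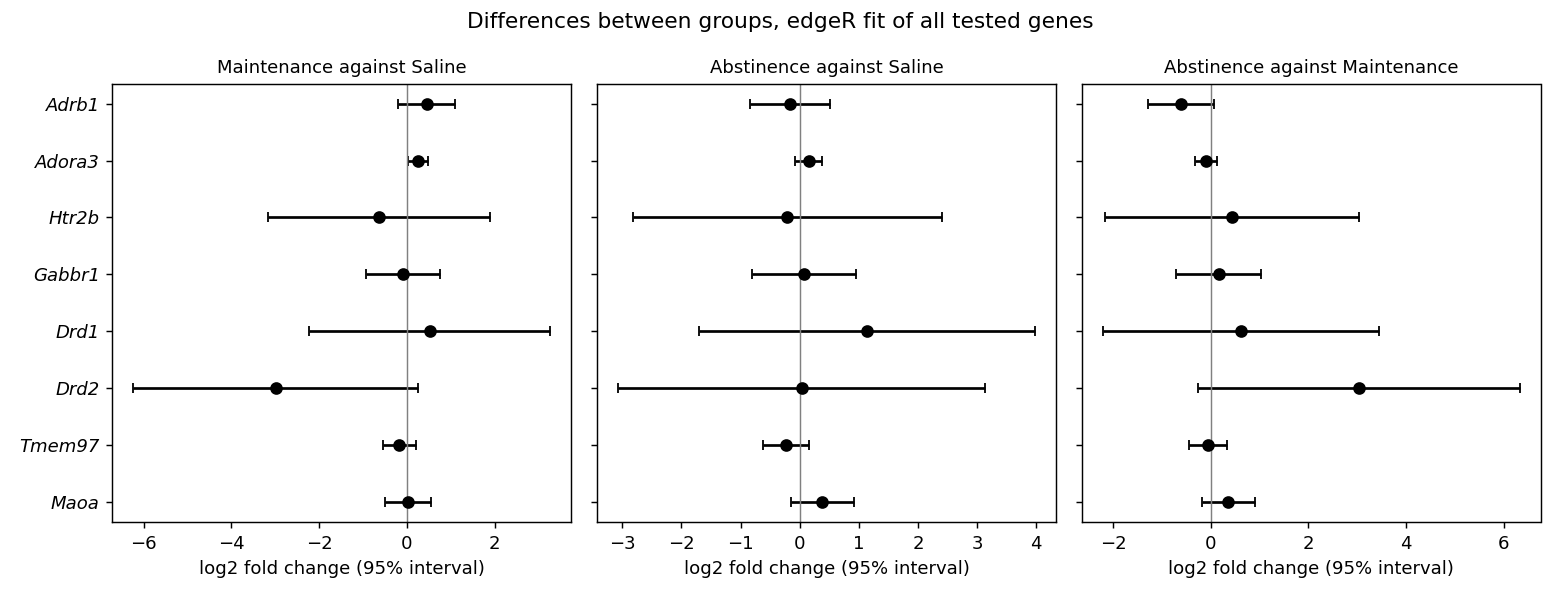
Fitted log2 fold change with 95% interval for the 8 members (rows) in the 3 comparisons (panels, with their own horizontal scales). Intervals are narrow for Adora3, Tmem97 and Maoa and span several log2 units for Htr2b, Drd1 and Drd2, and 1 of 24 intervals, Adora3 in Maintenance against Saline, leaves out 0.

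The signalling genes downstream of these receptors ran from 1.65 CPM (Adcy3, an adenylyl cyclase) to 877 CPM (Rgs10, a regulator of G protein signalling) in mean level. All 37 genes of G proteins, cyclic AMP enzymes and receptor desensitisation were tested and 0 passed in any comparison, with median log2 fold changes of 0.03, −0.02 and −0.09 for Maintenance against Saline, Abstinence against Saline and Abstinence against Maintenance, beside 0.005, 0.008 and 0.006 over all genes tested. Among 27 receptor genes for other neuromodulators 14 were tested and 0 passed. Hrh2, the Gs-coupled histamine H2 receptor, came nearest. It ran from 13.5 to 18.6 CPM in Saline, from 3.81 to 13.8 CPM in Maintenance and from 11.1 to 19.8 CPM in Abstinence. Its log2 fold change was −0.72 ± 0.19 for Maintenance against Saline and 0.71 ± 0.19 for Abstinence against Maintenance (edgeR adjusted p = 0.0699 and 0.0738). In 3 of 32 alternatives for each comparison, DESeq2 among them (0.0172 and 0.0198), it was under 0.05. The highest adjusted p among the alternatives was 0.158 and 0.264. The Maintenance libraries enter both comparisons.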

How the data were processed

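Microglial RNA was sequenced from 8 Saline, 8 Maintenance and 7 Abstinence libraries, made with a low-input kit per the labels' protocols. The deposited gene counts are the authors' raw read counts per gene; the submitters' processing notes name STAR 2.7.10a, StringTie 2.1.5, DESeq2 1.38.3, cutadapt 1.18, Trim Galore 0.6.7 and build GRCm38, with no role, order or strand setting. A second deposited table of counts repeats 17 of the libraries, and 0 of its 611592 values differ. The members, gene lists and tests were chosen with earlier results of these data known.

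Counts were scaled by TMM to CPM and tested in edgeR 4.0.16 (R 4.3.3) over all 23 libraries with filterByExpr (minimum count 10, minimum total 15), robust quasi-likelihood fits and a Benjamini-Hochberg threshold of 0.05 over 16121 genes. The tests were checked on simulated counts, with changes planted only in genes averaging 2 or more in log2 CPM. This check does not cover sparse genes such as Htr2b, Drd1 and Drd2. Of planted 1.5-fold changes 29.5% to 43.4% were recovered, and of 4-fold changes 93.9% to 97.2%. For Abstinence against Saline 61 to 70 changes were planted at each fold, while 3 genes passed in the data. With more true changes an adjusted threshold is easier to reach, and no library was simulated to stand apart as Maintenance 8 does. Recovery in the data can thus be lower than these shares. False calls were 4.14% to 7.84% of all calls. DESeq2 1.42.0 and other settings were alternatives. Marker sums were log2 CPM sums compared by exact permutation, and relations used log2 values with 100000 permutations. The relations and the covariate were added after values were seen. Exon lengths and overlaps came from GENCODE vM21. Of 279 list entries, 276 matched by symbol, 2 by synonym and 1 did not. Besides all 8 members, the text names up to 4 tested genes of highest mean CPM per list, genes that overlap a member, and the 3 genes of highest Spearman rho to a member among genes averaging 2 or more in log2 CPM; any other gene was chosen after its values were seen. Some genes of these lists are not reported here. No 2 libraries of the same group agreed within sampling noise, and pairs from different groups were not compared in this way. Depth was 54970954 to 94827095 counts, and precision is set by the spread between libraries (common biological coefficient of variation 0.831).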

Additional observations from a re-analysis of the deposited data

Results flagged for a closer look

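In 5 of 24 tests of a member within a group, 1 library stood farther from its neighbour, relative to the range of its group, than Dixon's 95% limit. That limit allows about 1 in 20 by chance for normally distributed values only. Levels of sparse genes with zeros are not so distributed, so the share flagged cannot be set against that rate. These were Htr2b in Abstinence 1 (1.72 CPM), Gabbr1 in Saline 8 (6.53 CPM), Drd1 in Saline 8 (1.96 CPM), Drd1 in Abstinence 7 (4.19 CPM) and Drd2 in Maintenance 1 (0.361 CPM). Each was the highest library of its group, and 3 of the genes, Htr2b, Drd1 and Drd2, have libraries at 0. For Drd2 in Maintenance 7 of 8 libraries were at 0, so any count in the remaining library would have been flagged.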

How the results depend on the processing

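No member was called in 95 of 96 combinations of comparison and alternative. The exception was 1 member, Drd2, for Abstinence against Maintenance without Maintenance replicate 1, where the fitted value was 7.86 (adjusted p = 0.0464); left-out libraries thus gave 0 to 1 members there. The count of all genes called moved more. For Maintenance against Saline it was 114, and became 349 with DESeq2, 69 with a replicate block, 57 with the 2 groups alone, 176 in the 17 libraries, and 42 to 197 with a library left out. For Abstinence against Saline it was 3, and became 6 with the filter at 1 CPM in every library of a group, 36 with DESeq2, 5 with the 2 groups alone, 15 without Maintenance 6, 7 and 8, 56 in the 17 libraries, and 1 to 15 with a library left out. For Abstinence against Maintenance it was 153, and became 242 with that filter, 452 with DESeq2, 64 with the 2 groups alone, 238 in the 17 libraries, and 89 to 265 with a library left out. The causes were not tested. Of same-numbered libraries 0 pairs had correlated deviations above 0.1. No pairing by number was seen in this way, which cannot exclude a weaker one.

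Of 757 member estimates under alternatives, 38 changed sign, all uncalled and 25 of them with a library left out. Gabbr1 for Maintenance against Saline became 0.21 without Maintenance 6, 7 and 8 and 0.22 in the 17 libraries, and for Abstinence against Maintenance −0.15 in both. Htr2b for Abstinence against Maintenance became −0.20 and −0.21, and Tmem97 0.0349, 0.0297 and 0.0848, the last with the replicate block. Maoa for Maintenance against Saline became −0.12 without Maintenance 6, 7 and 8 and −0.0578 with the vessel covariate. Drd2 for Abstinence against Saline became −0.59 with the replicate block and −0.0039 with the covariate. With a library left out the ranges were −0.31 to 1.08 (Drd1), −0.0670 to 0.35 (Gabbr1), −0.21 to 0.90 (Htr2b) and −0.17 to 0.0619 (Tmem97) for Abstinence against Maintenance, −0.16 to 0.25 (Gabbr1), −0.86 to 0.0152 (Htr2b) and −0.72 to 0.60 (Drd2) for Abstinence against Saline, and −0.28 to 0.0935 (Gabbr1) and −0.0683 to 0.14 (Maoa) for Maintenance against Saline. The filter at 1 CPM left Htr2b, Drd1 and Drd2 untested, and fits of 2 groups left Drd2 untested wherever Maintenance was compared. DESeq2 gave Htr2b, Drd1 and Drd2 no adjusted p in those comparisons. Every member passed the main filter, so permutation of untested members was not run. Sparse counts limit Htr2b, Drd1 and Drd2.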
